A study of Rattus norvegicus with 32 samples.

Results

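BPA 25000 and BPA 250 are the uterine libraries of rats that received bisphenol A (BPA) at 25000 and at 250 µg per kg body weight per day, and every gene was compared between them. The 8 libraries, 4 for each dose, were taken by their labels from the 32 libraries of the series, and 13312 of the 17327 genes in the count table were expressed well enough to be tested. Control libraries took no part in the contrast. All animals were Sprague-Dawley rats of 1 breeding colony (Sprague-Dawley/CD23/NctrBR). Dams of both groups were gavaged from gestation day 6 until labor, and the pups themselves from postnatal day 1 until the uterus was collected at PND365 (postnatal day, as the labels write it). The other groups of the series received the vehicle alone (0.3% carboxymethylcellulose), BPA at 2.5, 25 or 2500 µg per kg per day, or the oral estrogen ethinyl estradiol (EE2) at 0.05 or 0.5 µg per kg per day. The labels name no animal, litter, cage, estrous stage or hour of collection, so the p-values measure the spread between these samples.

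BPA is the monomer of polycarbonate plastic and of many epoxy resins. It binds both estrogen receptors far more weakly than estradiol does. In the rodent uterus estradiol acts through estrogen receptor alpha, drives growth of the epithelium and induces secreted proteins such as complement C3 and lactoferrin, while progesterone restrains that growth. The title of the series speaks of a low-dose signature. The contrast of a high with a middle dose asks which transcripts differ between 2 doses of 1 compound.

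Levels are given as CPM, counts scaled to a library of 1e6 counts, on library sizes scaled by the TMM method. Total counts were 23078311, 18058823, 16130546 and 19105373 in BPA 25000 libraries 1 to 4, against 18842290, 24661856, 11802916 and 19105348 in BPA 250 libraries 1 to 4. The tissue label was borne out by its markers: all 9 measured uterus genes were detected in all 8 libraries, 0 of them were called (2 lower at an unadjusted p under 0.05 and by limma voom, 0 by DESeq2), and the smooth muscle actin Acta2 had 4973 to 5816 CPM in BPA 25000, against 7367 to 10708 CPM in BPA 250. Of the 8, BPA 25000 library 3 and BPA 250 library 1 stood apart. BPA 25000 library 3 had a median correlation with the other libraries of 0.926, where the other BPA 25000 libraries had 0.954 to 0.956. BPA 250 library 1 had 0.911, where the others of its group had 0.942 to 0.953, and it had counts for 12345 genes, against 13354 to 13973. Libraries 1 and 3 of BPA 2.5 were as low, at 0.892 and 0.911, and enter the contrast only through the spread that all groups share in the fit. They also enter the BPA 2.5 values given below beside the other doses. Because of BPA 25000 library 3 and BPA 250 library 1, the counts over all genes, many list counts and some gene values are also given without both, which leaves 3 libraries a group. For many other genes the single libraries without which a call was lost are named.

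In all, 1467 genes were higher in BPA 25000 than in BPA 250 (11% of the genes tested) and 1486 were lower (11.2%), at an adjusted p under 0.05, so that 22.2% of the genes were called. A fold change is written as log2FC, the log2 ratio of BPA 25000 over BPA 250, with its SE. Calls are from edgeR's quasi-likelihood test with Benjamini-Hochberg adjustment over all genes tested. The genes called higher had a median log2 fold change of 0.80 and 418 of them differed by more than 1 on the log2 scale. The genes called lower had a median of -0.77 and 349 differed by more than 1. Genes called lower were also the more abundant ones, with a median level of 82.8 CPM, against 26.8 CPM for genes called higher. The libraries of the groups did not overlap for 1076 of the higher and 1185 of the lower genes. Over all genes tested the share without overlap was 21.9%. In any called gene named below, lack of overlap is likely in advance, because the same contrast chose the gene. It adds no support to the call. In whole tissue, fewer cells of a type and less RNA per cell cannot be told apart. Without BPA 25000 library 3 the counts were 713 higher and 968 lower. Without both libraries that stand apart they were 465 and 681, of which 429 and 656 were among the calls with all libraries. That fit tested 13391 genes. List and family counts without both libraries are to be read beside these totals, and those with all libraries beside 22.2%.

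**Figure D1:**
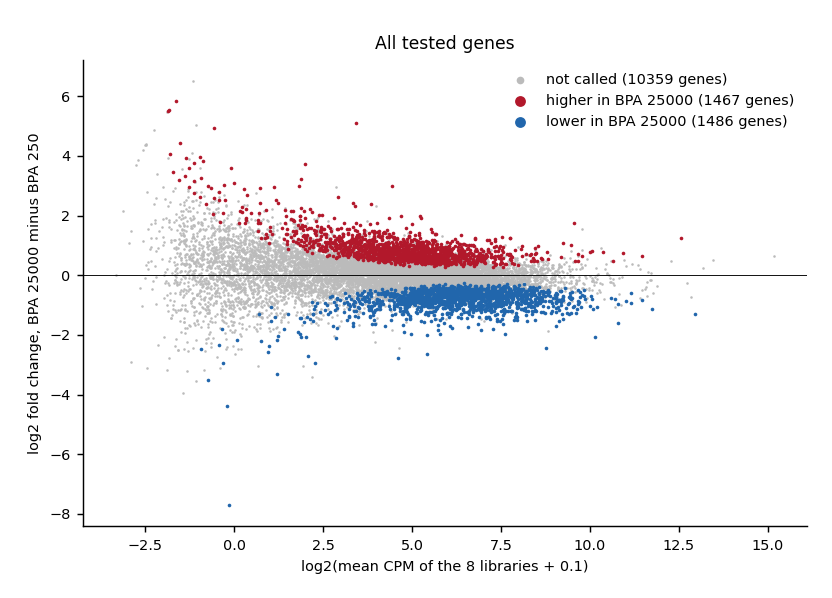
Each point is 1 of the 13312 tested genes, with the log2 of its mean level (CPM + 0.1) over the 8 libraries on the horizontal axis and the log2 fold change, BPA 25000 minus BPA 250, on the vertical axis. The 1467 genes called higher are red, the 1486 called lower are blue, and the lower ones lie further to the right, at higher levels.

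The 15 called genes with the largest positive fold changes, among those at a mean log2 CPM of 1 or more and with all 4 BPA 25000 libraries above the BPA 250 mean, were Alb, Btg1b, Hspa1l, Sftpd, Ccnf, Atp12a, Kif22, Nusap1, Clic6, Matn4, Zfp219, Aldh1a1, Jakmip1, Kifc1 and H2ac21. Their log2 fold changes ran between 1.93 and 2.98. Btg1b had 11.6, 12, 13.7 and 14.6 CPM in BPA 25000, against 0, 2.59, 1.96 and 3.75 CPM in BPA 250, with no overlap between the groups (log2FC 2.64 ± 0.52, adjusted p = 0.00103). Zfp219 is a zinc finger transcription factor whose gene overlaps Arhgef40 and Tmem253. It had 28.2, 27.7, 84.8 and 22.8 CPM in BPA 25000, against 6.46, 11.9, 13.4 and 9.18 CPM in BPA 250 (log2FC 2.0 ± 0.37, adjusted p = 5.8e-04). BPA 25000 library 3 was the highest of the Zfp219 values, and the other 3 libraries of that dose still lay above every BPA 250 library. Aldh1a1 is a dehydrogenase that makes retinoic acid from retinal. It had 29.4, 90.4, 44.7 and 75 CPM in BPA 25000, against 11.2, 19.7, 8.82 and 20.6 CPM in BPA 250 (log2FC 1.98 ± 0.55, adjusted p = 0.0107). Clic6 is of the chloride intracellular channel family. It had 11.7, 5.13, 8.78 and 7.1 CPM in BPA 25000, against 1.5, 2.13, 2.94 and 1.62 CPM in BPA 250 (log2FC 2.01 ± 0.52, adjusted p = 0.00724). Neither Aldh1a1 nor Clic6 overlapped between the doses.

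Ccnf, Nusap1, Kif22 and Kifc1 encode proteins of cell division. Ccnf is cyclin F, the substrate-binding part of a ubiquitin ligase that acts in the cell cycle, and it had 5.59, 3.83, 12.7 and 6.03 CPM in BPA 25000, against 1.89, 2.45, 0.178 and 1.33 CPM in BPA 250 (log2FC 2.23 ± 0.55, adjusted p = 0.0053). Nusap1 is a microtubule-binding protein of the mitotic spindle. It had 7.36, 3.94, 11.7 and 12.2 CPM in BPA 25000, against 1.45, 2.36, 1.6 and 3.18 CPM in BPA 250 (log2FC 2.02 ± 0.50, adjusted p = 0.00513). The spindle kinesins Kif22 (log2FC 2.13 ± 0.67, adjusted p = 0.0238) and Kifc1 (log2FC 1.93 ± 0.68, adjusted p = 0.0403) had 0 counts in BPA 250 library 1. The Kif22 call was lost without BPA 25000 library 3 (adjusted p up to 0.0746), and the Kifc1 call was lost without BPA 25000 library 3 or 4 or BPA 250 library 1 or 3 (adjusted p up to 0.131).

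Albumin (Alb), the main protein of blood plasma, had the largest fold change of the 15, with a wide spread. It had 97.8, 21.3, 10.2 and 24.4 CPM in BPA 25000, against 3.84, 6.44, 5.44 and 3.81 CPM in BPA 250 (log2FC 2.98 ± 1.04, adjusted p = 0.0391). Library 1 lay far above the other BPA 25000 libraries, and the call was lost without BPA 25000 library 1 or BPA 250 library 1, 2, 3 or 4 (adjusted p up to 0.176). Surfactant protein D (Sftpd), a lectin of mucosal surfaces, overlapped between the groups with 6.84, 10.4, 31.3 and 21.3 CPM in BPA 25000, against 0, 8.71, 2.23 and 2.77 CPM in BPA 250, and its call was lost without BPA 25000 library 3 or 4 or BPA 250 library 1, 3 or 4 (adjusted p up to 0.13). Atp12a is a proton and potassium pump. It had 4.59, 7.33, 3.9 and 8.86 CPM in BPA 25000, against 1.11, 1.54, 1.51 and 1.33 CPM in BPA 250 (log2FC 2.16 ± 0.71, adjusted p = 0.030). Its call was lost without BPA 25000 library 2 or 4 or BPA 250 library 1, 2, 3 or 4 (adjusted p up to 0.0771). Hspa1l lies beside other Hsp70 genes of near-identical sequence and H2ac21 is 1 of many histone copies, so reads of both may come from their copies. Their calls were lost without BPA 25000 library 3 (adjusted p up to 0.10) for Hspa1l and lost without BPA 25000 library 3 (adjusted p up to 0.0975) for H2ac21. The remaining pair were the matrix protein Matn4 (log2FC 2.0 ± 0.66, adjusted p = 0.0295), whose call was lost without BPA 25000 library 3 or BPA 250 library 1 or 3 (adjusted p up to 0.174), and Jakmip1 (log2FC 1.98 ± 0.60, adjusted p = 0.0197), whose call was lost without BPA 25000 library 3 or BPA 250 library 1 (adjusted p up to 0.114). Of the 15 genes, 6 were called in all 8 fits that leave out 1 library, and 2 (Btg1b and Zfp219) without both libraries that stand apart.

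Windows around the start sites of the leading genes are shown because a response element for estrogen receptors, where present, would be sought there first. They run from 250 bases before to 50 bases after each start, are from RefSeq on the build GRCr8 and read 5′ to 3′ on the gene's strand. Capitals mark AGGTCA, the half-site bound by nuclear receptors, on either strand. The leading higher genes with an entry were these.
Alb (chr14:17906930-17907229, minus strand): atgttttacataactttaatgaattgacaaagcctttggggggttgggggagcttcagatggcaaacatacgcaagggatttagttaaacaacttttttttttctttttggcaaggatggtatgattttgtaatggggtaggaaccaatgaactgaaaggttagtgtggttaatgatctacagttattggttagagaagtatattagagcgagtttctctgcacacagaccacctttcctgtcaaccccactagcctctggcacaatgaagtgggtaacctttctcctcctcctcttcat
Btg1b (chrX:121671050-121671349, minus strand): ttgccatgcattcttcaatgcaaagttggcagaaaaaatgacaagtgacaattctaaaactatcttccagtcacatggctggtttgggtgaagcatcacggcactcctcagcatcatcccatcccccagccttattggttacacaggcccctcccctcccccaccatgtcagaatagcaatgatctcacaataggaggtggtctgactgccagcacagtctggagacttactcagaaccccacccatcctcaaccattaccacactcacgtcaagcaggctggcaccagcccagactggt
Hspa1l (chr20:3860174-3860473, minus strand): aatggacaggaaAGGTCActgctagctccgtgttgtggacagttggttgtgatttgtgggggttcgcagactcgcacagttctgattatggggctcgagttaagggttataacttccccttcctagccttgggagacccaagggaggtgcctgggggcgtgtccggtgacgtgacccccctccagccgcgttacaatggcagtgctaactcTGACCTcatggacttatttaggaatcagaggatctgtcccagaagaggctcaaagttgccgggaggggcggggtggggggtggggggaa
The leading lower genes with an entry were these.
Slc16a12 (chr1:241621667-241621966, minus strand): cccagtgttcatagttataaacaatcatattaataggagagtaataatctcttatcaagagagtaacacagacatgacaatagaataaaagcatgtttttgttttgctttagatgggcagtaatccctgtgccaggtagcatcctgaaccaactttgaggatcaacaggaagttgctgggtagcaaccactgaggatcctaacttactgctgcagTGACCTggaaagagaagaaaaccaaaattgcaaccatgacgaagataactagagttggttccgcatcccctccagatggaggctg
Svbp (chr5:138093084-138093383, plus strand): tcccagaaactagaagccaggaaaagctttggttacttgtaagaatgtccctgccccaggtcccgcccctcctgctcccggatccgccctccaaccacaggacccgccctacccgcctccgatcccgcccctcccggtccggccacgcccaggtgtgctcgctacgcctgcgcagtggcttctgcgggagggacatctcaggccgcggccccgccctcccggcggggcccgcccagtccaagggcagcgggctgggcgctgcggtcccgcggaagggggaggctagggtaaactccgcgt
Lrat (chr2:170571163-170571462, minus strand): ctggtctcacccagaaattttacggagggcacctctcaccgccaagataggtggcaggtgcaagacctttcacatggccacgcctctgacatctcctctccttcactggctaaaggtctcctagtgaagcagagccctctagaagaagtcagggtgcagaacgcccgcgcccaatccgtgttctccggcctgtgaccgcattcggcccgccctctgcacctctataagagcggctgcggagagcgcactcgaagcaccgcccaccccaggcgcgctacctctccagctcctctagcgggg
The half-site was found at 2 places in the Hspa1l window and at 1 in the Slc16a12 window. It was in 13% of the 1213 windows of genes called higher and in 9.4% of the 1234 of genes called lower, and in 12.3% of the 10688 windows of genes tested. TGANTCA, the AP-1 motif, was in 5.03% of the windows of higher genes, 5.11% of those of lower genes and 5.42% of all tested, and in none of the 6 shown. A full estrogen response element (GGTCA and TGACC with 3 bases between them) was in none of the called genes' windows and in 1 window of the genes tested. Median GC content was 61.7% in windows of higher genes, 62.3% in those of lower genes and 60% over genes tested. These are matches of letters and not bound sites.

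Among the 15 genes with the largest negative fold changes under the same rule were Svbp, Lrat, Tnfaip6, Mlec and Giot1. The others were Slc16a12, Snhg4, LOC681325, Epha5, Pkd2l2, Slc24a5, Ccl12, C1qtnf3, Esm1 and a gene of identifier 689840 that the tables pair with no name. Log2 fold changes ran between -2.77 and -1.9. Svbp encodes the partner of the vasohibins, enzymes that trim tyrosine from tubulin, and had 16.5, 10.9, 7.41 and 12 CPM in BPA 25000, against 147, 45.8, 47.6 and 50.6 CPM in BPA 250 (log2FC -2.63 ± 0.35, adjusted p = 5.4e-05). Every BPA 250 library lay above every BPA 25000 library, and without the libraries that stand apart the log2 fold change was -1.89 (adjusted p = 0.0021). Mlec is malectin, a sugar-binding protein of the endoplasmic reticulum, and had 95, 77.4, 54.3 and 90.9 CPM in BPA 25000, against 453, 313, 170.0 and 304 CPM in BPA 250 (log2FC -1.97 ± 0.28, adjusted p = 1.0e-04). Giot1 is a zinc finger protein first described as inducible by gonadotropin in rat ovary. It had 28.1, 21.8, 14.3 and 24.9 CPM in BPA 25000, against 118, 67.2, 69.4 and 92.1 CPM in BPA 250 (log2FC -1.96 ± 0.28, adjusted p = 1.0e-04). Pkd2l2 is of the polycystin channel family, and its gene overlaps Fam13b. It had 14.7, 19.7, 15.7 and 18.1 CPM in BPA 25000, against 98.1, 63.2, 32.2 and 78 CPM in BPA 250 (log2FC -1.99 ± 0.34, adjusted p = 3.1e-04). Slc24a5 is a sodium, potassium and calcium exchanger whose gene overlaps Myef2, so that reads of the pair may be mixed. It had 17.3, 14.5, 8.01 and 10.9 CPM in BPA 25000, against 48.5, 46, 49.4 and 57.1 CPM in BPA 250 (log2FC -1.98 ± 0.36, adjusted p = 4.8e-04). These 5 genes did not overlap between the groups, were called in all 8 fits without 1 library and were called without both libraries that stand apart.

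Lrat, which esterifies retinol for storage, was uneven, with 70.9, 206, 77.3 and 180.1 CPM in BPA 25000, against 765, 185, 280.3 and 1682 CPM in BPA 250 (log2FC -2.45 ± 0.76, adjusted p = 0.0212). BPA 250 libraries 1 and 4 were high while library 2 lay within the BPA 25000 range, and the call was lost without BPA 25000 library 1 or 3 or BPA 250 library 4 (adjusted p up to 0.131). Tnfaip6 is a hyaluronan-binding protein secreted during inflammation and ovulation. It had 326, 389, 643 and 367 CPM in BPA 25000, against 1963, 2747, 733 and 1825 CPM in BPA 250 (log2FC -2.07 ± 0.63, adjusted p = 0.0191). BPA 250 library 3 was the only one of its group close to BPA 25000, and the call was lost without BPA 250 library 2 (adjusted p up to 0.0525). Snhg4 is a host transcript of small nucleolar RNAs. It had 1.91, 2.25, 3.84 and 2.72 CPM in BPA 25000, against 10.3, 14, 10.1 and 11.6 CPM in BPA 250 (log2FC -2.1 ± 0.40, adjusted p = 7.7e-04). It overlaps Matr3, so that reads of the pair may be mixed. Epha5 is a receptor for ephrins. It had 2.08, 1.47, 1.32 and 0.64 CPM in BPA 25000, against 6.74, 8.62, 3.74 and 4.04 CPM in BPA 250 (log2FC -2.07 ± 0.53, adjusted p = 0.00709). The chemokine Ccl12 (log2FC -1.96 ± 0.70, adjusted p = 0.0447) and the transporter Slc16a12 (log2FC -2.77 ± 0.94, adjusted p = 0.0339) overlapped between the groups. Their calls were lost without BPA 25000 library 2, 3 or 4 or BPA 250 library 2 or 4 (adjusted p up to 0.349) and lost without BPA 25000 library 1, 2, 3 or 4 or BPA 250 library 2 (adjusted p up to 0.297). C1qtnf3 is an adipokine. It had 7.58, 13, 4.39 and 20.7 CPM in BPA 25000, against 22.3, 14.5, 28.6 and 105 CPM in BPA 250, and its call was lost without BPA 25000 library 3 or BPA 250 library 4 (adjusted p up to 0.18). Esm1 (endocan) is a proteoglycan secreted by endothelium. It had 2.08, 1.69, 0.604 and 1.33 CPM in BPA 25000, against 6.23, 8.48, 2.5 and 4.16 CPM in BPA 250, and its call was lost without BPA 25000 library 3 or BPA 250 library 2 (adjusted p up to 0.0729). LOC681325 had 0 counts in BPA 25000 library 3, and its call was lost without BPA 250 library 2 (adjusted p up to 0.122). Of the 15 genes, 8 were called in all 8 fits without 1 library and 10 without both libraries that stand apart.

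**Figure D2:**
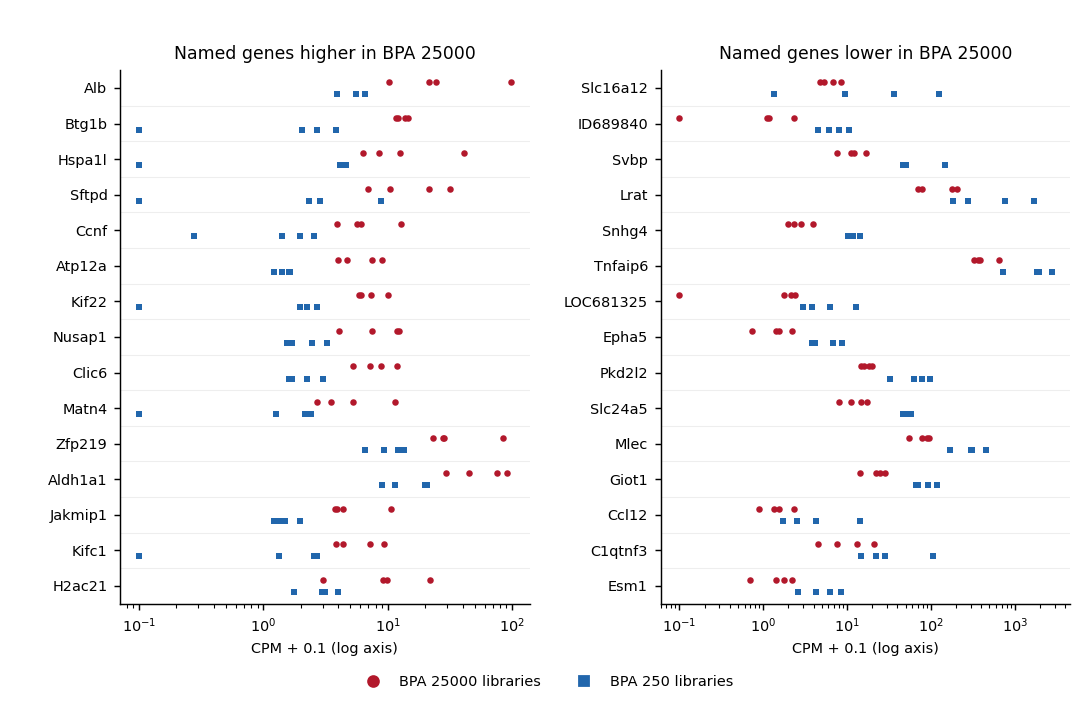
Levels of the 15 named genes higher in BPA 25000 (left) and the 15 lower (right) in each library, as CPM + 0.1 on a log axis, with BPA 25000 as red dots above BPA 250 as blue squares. Btg1b and Svbp separate the groups in every library, while Sftpd, Slc16a12 and Lrat overlap.

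In all, 288 genes were called higher and 516 lower with all libraries and under each of the 16 alternatives. Some of those with the smallest p-values are given here. They were chosen after their values were seen, and others with p-values as small were left out. Ubqln2 is a ubiquilin that carries ubiquitinated proteins to the proteasome. It had 87.7, 68.7, 50.5 and 70.9 CPM in BPA 25000, against 327, 192, 267 and 180.3 CPM in BPA 250 (log2FC -1.8 ± 0.20, adjusted p = 5.9e-06). Alg6 is a glucosyltransferase that builds the sugar chain for N-glycosylation. It had 27.9, 30.4, 17.7 and 29.6 CPM in BPA 25000, against 93.6, 67.6, 58.2 and 71.3 CPM in BPA 250 (log2FC -1.46 ± 0.18, adjusted p = 3.0e-05). Yaf2 is a partner of the RING1 and YY1 repressor proteins. It had 58.9, 47.7, 54 and 52.8 CPM in BPA 25000, against 222, 209.6, 159 and 172 CPM in BPA 250 (log2FC -1.84 ± 0.23, adjusted p = 3.0e-05). Rnf111 is a ubiquitin ligase of the TGF-beta pathway. It had 86.4, 81.2, 51.6 and 83.5 CPM in BPA 25000, against 187, 146, 145 and 157 CPM in BPA 250 (log2FC -1.07 ± 0.15, adjusted p = 8.6e-05). Crebzf is a bZIP transcription factor. It had 159, 189.6, 125 and 151 CPM in BPA 25000, against 533, 454, 316 and 491 CPM in BPA 250 (log2FC -1.52 ± 0.21, adjusted p = 9.4e-05). None of these 5 lower genes overlapped between the groups, which their choice by p-value in the same contrast makes likely in advance.

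On the higher side, Atg2a, which transfers lipid to the growing autophagosome, had 51.9, 59.6, 58.7 and 56.4 CPM in BPA 25000, against 27.1, 31.5, 25 and 31.2 CPM in BPA 250 (log2FC 0.98 ± 0.13, adjusted p = 8.6e-05). Pla2g6 is a calcium-independent phospholipase. It had 30.6, 34.1, 39.9 and 27.9 CPM in BPA 25000, against 14.5, 14.2, 13.5 and 13.6 CPM in BPA 250 (log2FC 1.25 ± 0.18, adjusted p = 1.0e-04). Ash2l is a shared subunit of the MLL histone H3 methyltransferases. It had 58.9, 63.3, 65.6 and 64.2 CPM in BPA 25000, against 37.1, 40.4, 43.5 and 42 CPM in BPA 250 (log2FC 0.63 ± 0.10, adjusted p = 1.8e-04). Mcm7 is a subunit of the replicative helicase. It had 35.7, 31.1, 47 and 34.9 CPM in BPA 25000, against 19.8, 14.3, 18.4 and 12.2 CPM in BPA 250 (log2FC 1.2 ± 0.19, adjusted p = 2.5e-04). These 4 did not overlap between the groups either, and here too the choice by p-value makes that likely in advance.

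Of the 20 tested estrogen-responsive genes 0 were called by edgeR in either direction, beside 22.2% of all genes tested. Their median log2 fold change was -0.13, beside 0.06 over all genes tested. At an unadjusted p under 0.05 there were 0 higher and 1 lower, and DESeq2 called 0. With limma voom and library weights, which give less weight to libraries with a wide spread, 2 were higher and 5 lower. Over all 13312 genes limma voom called 1903 higher and 1985 lower. By that tool Igf1 was at a log2FC of -1.40 ± 0.40 (adjusted p = 0.00926), S100g at -1.88 ± 0.67 (adjusted p = 0.0355) and Pgr at -0.95 ± 0.32 (adjusted p = 0.0273). The 2 called higher by it were Cyp26a1, which breaks down retinoic acid, and the water channel Aqp5. Complement C3 is a classic secreted product of estrogen-stimulated epithelium. It had 1225, 3826, 2912 and 4555 CPM in BPA 25000, against 3713, 6361, 1923 and 1986 CPM in BPA 250 (log2FC -0.16 ± 0.67, adjusted p = 0.891). S100g is the calcium-binding calbindin of uterine muscle and epithelium. It had 428, 77.3, 214 and 105 CPM in BPA 25000, against 62.4, 994, 293 and 348 CPM in BPA 250 (log2FC -1.04 ± 0.74, adjusted p = 0.332). The highest S100g library was in BPA 250 and the lowest as well. Igf1 is the growth factor that carries part of the estrogen signal from stroma to epithelium. It had 198, 54.4, 149.7 and 76.1 CPM in BPA 25000, against 277, 269, 215 and 139 CPM in BPA 250 (log2FC -0.91 ± 0.41, adjusted p = 0.112). Against control, on the log2 scale, Igf1 was at -1.88 ± 0.42 (SE, adjusted p = 0.0245) for BPA 25000 and -0.97 ± 0.41 (SE, adjusted p = 0.121) for BPA 250. Lactoferrin (Ltf) was at 0.267 to 1.15 CPM in BPA 25000, against 0.52 to 1.86 CPM in BPA 250. Greb1, another panel gene, was not analysed here.

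Of the hormone receptors described here 1 was called, Nr3c1. Estrogen receptor alpha (Esr1) had 145, 171, 131 and 158 CPM in BPA 25000, against 127, 128, 102 and 141 CPM in BPA 250 (log2FC 0.28 ± 0.22, adjusted p = 0.372). Estrogen receptor beta (Esr2) was at or under 0.907 CPM in all 8 libraries. The progesterone receptor (Pgr) had 203, 72.1, 209 and 78.7 CPM in BPA 25000, against 132, 243, 148 and 140.1 CPM in BPA 250 (log2FC -0.24 ± 0.35, adjusted p = 0.67). The glucocorticoid receptor (Nr3c1) was lower, with 169, 161, 76 and 158 CPM in BPA 25000, against 274, 227, 237 and 278 CPM in BPA 250 (log2FC -0.85 ± 0.24, adjusted p = 0.0134). BPA 25000 library 3 lay below the rest, and without it and BPA 250 library 1 the Nr3c1 value was -0.63 (adjusted p = 0.117). The Nr3c1 call was lost without BPA 25000 library 3 (adjusted p up to 0.0618). Of 23 tested genes of steroid receptors and metabolism, 2 were higher and 2 lower (17.4%, beside 22.2% over all genes). Among the higher ones was steroid sulfatase (Sts), which frees estrogens from their sulfates, with 16.9, 27.6, 31.5 and 21.3 CPM in BPA 25000, against 15.2, 10.6, 18.1 and 10.2 CPM in BPA 250 (log2FC 0.85 ± 0.23, adjusted p = 0.0104). The Sts call was lost without BPA 25000 library 3 (adjusted p up to 0.0594). Without both libraries that stand apart Sts was at 0.74 (adjusted p = 0.0745). The other lower gene was Akr1c14, a rat 3-alpha-hydroxysteroid dehydrogenase, with 82.6, 44.5, 34.5 and 39.9 CPM in BPA 25000, against 130.3, 106, 97.4 and 77.5 CPM in BPA 250 (log2FC -1.03 ± 0.31, adjusted p = 0.019), and its call was lost without BPA 25000 library 3 or 4 or BPA 250 library 1 (adjusted p up to 0.0749). Without both libraries it was at -0.78 (adjusted p = 0.174). Of 16 tested progesterone-responsive genes 1 was lower (6.25%, beside 22.2% called over all genes). It was the hypoxia factor Hif1a, with 276, 196, 156 and 197 CPM in BPA 25000, against 311, 362, 284 and 327 CPM in BPA 250 (log2FC -0.64 ± 0.19, adjusted p = 0.0162). Its call was lost without BPA 25000 library 3 (adjusted p up to 0.0662).

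Genes of the cell cycle leaned upward, with 24 of 27 tested members above 0 and a median log2 fold change of 0.66, but 3 were called higher (11.1%) and 1 lower. Over all genes tested 11% were called higher. Mki67 is the proliferation marker Ki-67. It had 58.9, 44.7, 99.9 and 71.9 CPM in BPA 25000, against 20.7, 34.5, 16.1 and 29.3 CPM in BPA 250 (log2FC 1.45 ± 0.50, adjusted p = 0.0388). Top2a is the topoisomerase of dividing cells. It had 48.6, 24.3, 75.7 and 65.2 CPM in BPA 25000, against 12, 28.5, 13.4 and 26.6 CPM in BPA 250 (log2FC 1.41 ± 0.51, adjusted p = 0.0455), and Cdc20, an activator of the anaphase-promoting complex, had 6.8, 4.11, 12.2 and 7.74 CPM in BPA 25000, against 1.34, 2.86, 3.21 and 3.75 CPM in BPA 250 (log2FC 1.47 ± 0.53, adjusted p = 0.0456). BPA 25000 library 3 was the highest for all 3. Their calls were lost without BPA 25000 library 3 or 4 or BPA 250 library 1, 3 or 4 (adjusted p up to 0.145) for Mki67, lost without BPA 25000 library 1, 3 or 4 or BPA 250 library 1, 3 or 4 (adjusted p up to 0.157) for Top2a and lost without BPA 25000 library 1, 3 or 4 or BPA 250 library 1, 2, 3 or 4 (adjusted p up to 0.181) for Cdc20. At an unadjusted p under 0.05, 12 members were higher and 1 lower; DESeq2 called 6 higher and limma voom 0. Without the libraries that stand apart the median was 0.44 and 0 members were called higher. Cyclin E2 (Ccne2), which drives entry into S phase, went the other way, with 11.6, 7.66, 9.77 and 9.07 CPM in BPA 25000, against 6.51, 29.7, 22.5 and 26.6 CPM in BPA 250 (log2FC -1.16 ± 0.37, adjusted p = 0.0262). It was called without both libraries that stand apart, at -1.51 (adjusted p = 0.0176), and its call was lost without BPA 25000 library 2, 3 or 4 or BPA 250 library 2 or 4 (adjusted p up to 0.0867).

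The circadian clock had 6 of 16 tested members called, 2 higher and 4 lower (37.5%), beside 22.2% over all genes. The clock is a loop in which Clock or Npas2 pairs with Bmal1 to switch on the Per and Cry repressors, the repressor Nr1d1 (Rev-erb alpha) and the output factor Dbp. Nr1d1 was higher, with 62.5, 44.4, 50.4 and 36.2 CPM in BPA 25000, against 23.3, 16.5, 24 and 12.4 CPM in BPA 250 (log2FC 1.35 ± 0.24, adjusted p = 4.2e-04). Dbp was also higher, with 35.4, 34.9, 30.3 and 23.8 CPM in BPA 25000, against 23.2, 9.44, 22.8 and 8.08 CPM in BPA 250 (log2FC 0.98 ± 0.30, adjusted p = 0.0214). Neither overlapped between the doses, although in Dbp BPA 250 libraries 1 and 3 came close to the lowest BPA 25000 library. The lower members came from both arms of the loop. Cry1 had 22.3, 14, 16.1 and 15.2 CPM in BPA 25000, against 25.8, 35.8, 38.5 and 30.2 CPM in BPA 250 (log2FC -0.95 ± 0.21, adjusted p = 0.00271), and Npas2 had 69.3, 84.8, 63.2 and 82.2 CPM in BPA 25000, against 91, 159, 114 and 147 CPM in BPA 250 (log2FC -0.77 ± 0.19, adjusted p = 0.00467). Per2 had 64.5, 50.2, 98 and 51 CPM in BPA 25000, against 102, 96.2, 143 and 104 CPM in BPA 250 (log2FC -0.76 ± 0.23, adjusted p = 0.0184), with BPA 25000 library 3 inside the BPA 250 range. Clock had 175, 143, 141 and 156 CPM in BPA 25000, against 239.6, 183, 213 and 188 CPM in BPA 250 (log2FC -0.42 ± 0.15, adjusted p = 0.0458).

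Without the libraries that stand apart, 5 of the 6 clock genes were called: Nr1d1 at 1.42 (adjusted p = 0.00619), Dbp at 1.22 (adjusted p = 0.0293), Cry1 at -1.05 (adjusted p = 0.0114), Npas2 at -0.86 (adjusted p = 0.0135) and Per2 at -1.08 (adjusted p = 0.00975). The calls of Nr1d1, Cry1 and Npas2 held in all 8 fits without 1 library. The Dbp call was lost without BPA 250 library 2 or 4 (adjusted p up to 0.0855), the Per2 call was lost without BPA 25000 library 2 or 4 or BPA 250 library 3 (adjusted p up to 0.0643) and the Clock call was lost without BPA 25000 library 2, 3 or 4 or BPA 250 library 1, 3 or 4 (adjusted p up to 0.12). Bmal1 itself was at 35.3 to 42.9 CPM in BPA 25000, against 21.4 to 57.7 CPM in BPA 250 (log2FC -0.16 ± 0.19, adjusted p = 0.601), and Per1 at 32.2 to 41.6 CPM in BPA 25000, against 28.6 to 49 CPM in BPA 250 (log2FC -0.11 ± 0.20, adjusted p = 0.729). The hour at which tissue was collected is not in the labels, and its part in these values was not tested. Against control, on the log2 scale, Nr1d1 was at 0.46 ± 0.23 (SE, adjusted p = 0.273) for BPA 25000 and -0.88 ± 0.24 (SE, adjusted p = 0.024) for BPA 250. Cry1 was, against control, at -0.27 ± 0.21 (SE, adjusted p = 0.512) for BPA 25000 and 0.67 ± 0.21 (SE, adjusted p = 0.0456) for BPA 250.

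Cholesterol synthesis had 1 of 24 tested members higher and 5 lower, with a median log2 fold change of -0.49; 20.8% of its members were lower, beside 11.2% of all genes. Hmgcs1 catalyses an early step. It had 86.7, 58.8, 90.1 and 57.6 CPM in BPA 25000, against 215, 281, 109 and 169.8 CPM in BPA 250 (log2FC -1.4 ± 0.35, adjusted p = 0.00509). Idi1 makes the activated isoprene unit. It had 181, 348, 199 and 427 CPM in BPA 25000, against 635, 1624, 350.2 and 711 CPM in BPA 250 (log2FC -1.52 ± 0.49, adjusted p = 0.0248). Msmo1 and Nsdhl remove methyl groups from the sterol ring late in the pathway. Msmo1 had 58.4, 39.9, 49.3 and 33.1 CPM in BPA 25000, against 156, 143, 95.5 and 92.5 CPM in BPA 250 (log2FC -1.43 ± 0.25, adjusted p = 4.4e-04), and Nsdhl had 14.9, 12.5, 13.4 and 14.6 CPM in BPA 25000, against 17.7, 24.7, 18.3 and 23.6 CPM in BPA 250 (log2FC -0.60 ± 0.22, adjusted p = 0.0449). Lss, which closes the ring to lanosterol, was higher, with 35.4, 44.1, 22 and 46.2 CPM in BPA 25000, against 14.9, 26.2, 20.8 and 24.6 CPM in BPA 250 (log2FC 0.77 ± 0.23, adjusted p = 0.0188). Msmo1, Hmgcs1 and Lss were called without the libraries that stand apart, at -1.36 (adjusted p = 0.00873), -1.5 (adjusted p = 0.0269) and 0.78 (adjusted p = 0.0374). The calls of Msmo1 and Hmgcs1 held in all 8 fits without 1 library. The Idi1 call was lost without BPA 25000 library 1 or 3 or BPA 250 library 2 (adjusted p up to 0.151), the Nsdhl call was lost without BPA 25000 library 1, 2, 3 or 4 or BPA 250 library 2 or 4 (adjusted p up to 0.121) and the Lss call was lost without BPA 25000 library 2 or 4 or BPA 250 library 1 (adjusted p up to 0.0865). Against control, on the log2 scale, Msmo1 was at -1.41 ± 0.25 (SE, adjusted p = 0.00956) for BPA 25000 and 0.016 ± 0.25 (SE, adjusted p = 0.973) for BPA 250. Hmgcs1 was, against control, at -1.81 ± 0.35 (SE, adjusted p = 0.0127) for BPA 25000 and -0.41 ± 0.34 (SE, adjusted p = 0.435) for BPA 250.

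Of 20 tested endothelial genes 5 were higher and 1 lower (30%, beside 22.2% over all genes), and without the libraries that stand apart 3 and 0. Tie1 is a receptor of the angiopoietin system. It had 118, 140.4, 183 and 136 CPM in BPA 25000, against 98, 74.4, 76.2 and 63 CPM in BPA 250 (log2FC 0.89 ± 0.19, adjusted p = 0.0015). Erg is a transcription factor that keeps endothelial identity. It had 11.6, 16.9, 26.1 and 12.8 CPM in BPA 25000, against 9.46, 5.94, 7.66 and 4.96 CPM in BPA 250 (log2FC 1.26 ± 0.26, adjusted p = 0.00153). VE-cadherin (Cdh5) is the junction protein of vessels. It had 109.8, 140.0, 113 and 146 CPM in BPA 25000, against 100.2, 67.4, 73.7 and 62.1 CPM in BPA 250 (log2FC 0.74 ± 0.22, adjusted p = 0.0163). These 3 did not overlap between the groups and were called without the libraries that stand apart, at 0.86 (adjusted p = 0.0127), 1.13 (adjusted p = 0.0133) and 0.94 (adjusted p = 0.0245). Egfl7 is a matrix protein of vessels. It had 28, 28.6, 88.9 and 24.8 CPM in BPA 25000, against 19.2, 18.3, 15.7 and 15.5 CPM in BPA 250 (log2FC 1.31 ± 0.34, adjusted p = 0.00673), with BPA 25000 library 3 well above the rest. Endoglin (Eng) had 153, 119, 182 and 128 CPM in BPA 25000, against 121, 98.7, 85.6 and 75.8 CPM in BPA 250 (log2FC 0.61 ± 0.19, adjusted p = 0.020). The calls of Tie1 and Erg held in all 8 fits without 1 library. The Egfl7 call was lost without BPA 25000 library 3 (adjusted p up to 0.132), the Cdh5 call was lost without BPA 25000 library 4 or BPA 250 library 4 (adjusted p up to 0.058) and the Eng call was lost without BPA 25000 library 3 or BPA 250 library 3 or 4 (adjusted p up to 0.119). Other markers of the same cells did not follow: Pecam1 had 147 to 208 CPM in BPA 25000, against 191 to 351 CPM in BPA 250 (log2FC -0.53 ± 0.21, adjusted p = 0.0641), and the receptor Kdr had 108 to 157 CPM in BPA 25000, against 98 to 160.4 CPM in BPA 250 (log2FC 0.084 ± 0.15, adjusted p = 0.729). The lymphatic marker Lyve1 was lower, with 28.2, 14.7, 9.22 and 19.2 CPM in BPA 25000, against 62.9, 24.6, 34 and 30 CPM in BPA 250 (log2FC -1.09 ± 0.33, adjusted p = 0.0197), and its call was lost without BPA 25000 library 2 or 3 or BPA 250 library 1 (adjusted p up to 0.111). The list's summed level was 1301 to 1927 CPM in BPA 25000, against 1019 to 1814 CPM in BPA 250, so it overlapped.

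**Figure D3:**
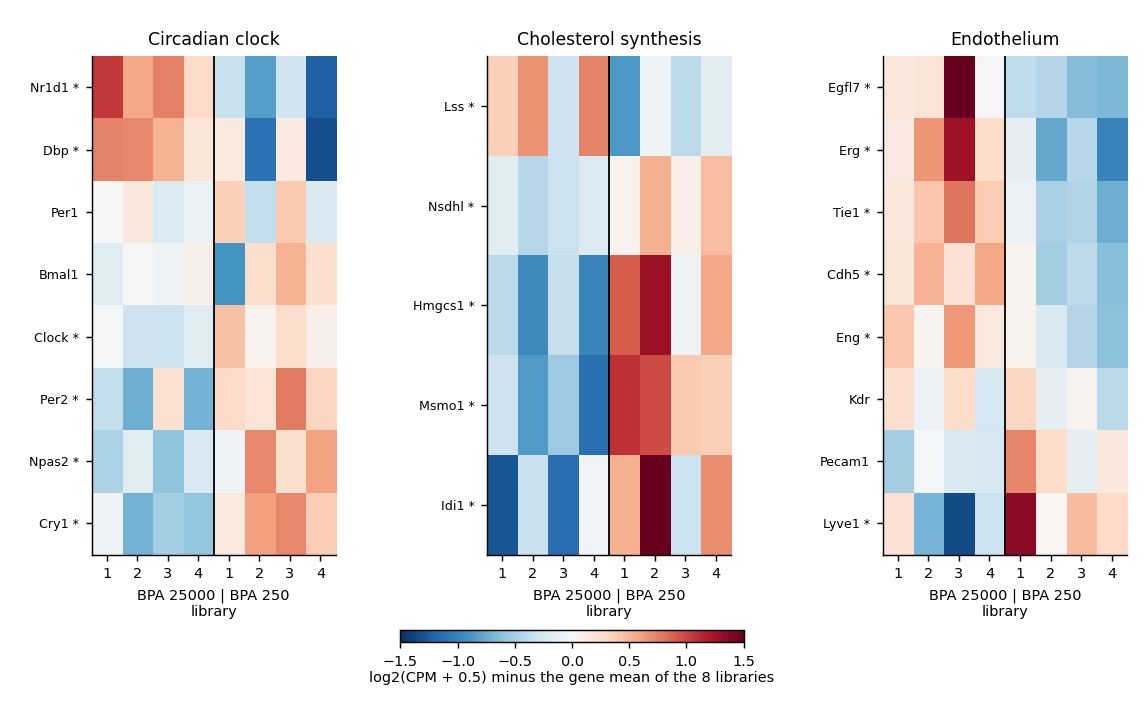
Level of the described members of 3 lists, all chosen after their values were seen, in the 4 BPA 25000 libraries (left of the line) and the 4 BPA 250 libraries, as log2(CPM + 0.5) minus the gene's mean over the 8 libraries, from blue (low) to red (high). An asterisk marks a called gene; Nr1d1 is red in all BPA 25000 libraries, and Cry1 and Msmo1 are red in all BPA 250 libraries.

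Macrophage genes had 2 of 20 members higher and 0 lower (10%, below the 22.2% over all genes), and 4 and 1 by limma voom. Complement C1qa had 73.4, 218, 62.6 and 124 CPM in BPA 25000, against 28.7, 67.6, 40.3 and 52.4 CPM in BPA 250 (log2FC 1.34 ± 0.32, adjusted p = 0.00403), and Gpnmb, a membrane protein of lipid-handling macrophages, had 275, 352, 134 and 278 CPM in BPA 25000, against 124, 79.9, 124 and 99.6 CPM in BPA 250 (log2FC 1.28 ± 0.40, adjusted p = 0.0229). Without the libraries that stand apart these were 1.34 (adjusted p = 0.0176) for C1qa and 1.55 (adjusted p = 0.0365) for Gpnmb. The Gpnmb call was lost without BPA 25000 library 2 or BPA 250 library 2 or 4 (adjusted p up to 0.0696). Against control, on the log2 scale, Gpnmb was at 2.49 ± 0.42 (SE, adjusted p = 0.00849) for BPA 25000 and 1.21 ± 0.40 (SE, adjusted p = 0.0552) for BPA 250. The list's summed level in BPA 25000 library 3 was 645 CPM, where the other libraries of that dose had 2084 to 2492 CPM, against 1056 to 1847 CPM in BPA 250.

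Of 16 tested lymphocyte genes 2 were higher (12.5%, beside 22.2% called over all genes), Cd4 (log2FC 0.87 ± 0.30, adjusted p = 0.0339) and Mzb1. Cd4 had 86.6, 99.8, 25.5 and 78.9 CPM in BPA 25000, against 35, 46.4, 32 and 45.4 CPM in BPA 250, and without the libraries that stand apart it was at 1.07 (adjusted p = 0.0222). The Cd4 call was lost without BPA 25000 library 1, 2 or 4 or BPA 250 library 1 or 3 (adjusted p up to 0.124). Mzb1, a plasma cell protein, had 27 counts in BPA 25000, against 1 count in BPA 250, a ratio of 23.8 with a 95% counting interval of 3.92 to 974. Its call was lost without BPA 25000 library 3 or BPA 250 library 1 or 4 (adjusted p up to 0.114). Of 14 tested genes of eosinophils and mast cells 1 was higher and 1 lower (14.3%, beside 22.2% over all genes), and 0 and 1 by limma voom. Their median log2 fold change was -0.0091. The 2 genes that edgeR called were mast cell proteases that went opposite ways. Chymase (Cma1) had 0.433, 0.394, 0 and 0.747 CPM in BPA 25000, against 4.18, 1.63, 7.58 and 2.6 CPM in BPA 250 (log2FC -3.31 ± 0.79, adjusted p = 0.00389), with no overlap, and was called in all 8 fits without 1 library. Tryptase (Tpsab1) had 26 counts in BPA 25000, most of them in library 3, against 0 counts in BPA 250, at least 7.64-fold higher against a floor of 3 counts over the group. The Tpsab1 call was lost without BPA 25000 library 3 (adjusted p up to 0.137). Counting intervals and floors cover counting error only.

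Inflammatory genes had 0 of 18 members higher and 2 lower, the chemokine Ccl2, with 5.94, 2.48, 1.59 and 2.51 CPM in BPA 25000, against 4.84, 13.2, 17.4 and 5.77 CPM in BPA 250 (log2FC -1.71 ± 0.54, adjusted p = 0.0235), and the inducible cyclooxygenase Ptgs2, with 21.6, 82.2, 18.9 and 53.4 CPM in BPA 25000, against 384, 33.3, 126 and 37.9 CPM in BPA 250 (log2FC -1.73 ± 0.59, adjusted p = 0.0346). Both overlapped between the doses, BPA 250 library 1 being the highest for Ptgs2. The 2 calls make up 11.1% of the list, beside 22.2% over all genes. The Ccl2 call was lost without BPA 25000 library 2, 3 or 4 or BPA 250 library 2 or 3 (adjusted p up to 0.0857), and the Ptgs2 call was lost without BPA 25000 library 1 or 3 or BPA 250 library 1 (adjusted p up to 0.469). With limma voom and library weights the Ptgs2 log2 fold change turned to 0.075 (adjusted p = 0.917). Of 26 genes of interferon response and antigen presentation edgeR called 1 higher and 1 lower (7.69%, beside 22.2% over all genes). By limma voom 7 were higher and 1 lower, and edgeR called 0 without the libraries that stand apart. Psmb8, a subunit of the immunoproteasome, was higher, with 32, 38.7, 53.9 and 34.4 CPM in BPA 25000, against 24.7, 23.2, 16.1 and 15.7 CPM in BPA 250 (log2FC 0.99 ± 0.33, adjusted p = 0.0319). B2m, the light chain of MHC class I, was lower, with 2129, 2292, 1279 and 2291 CPM in BPA 25000, against 4472, 4145, 2556 and 3173 CPM in BPA 250 (log2FC -0.84 ± 0.25, adjusted p = 0.0149). The Psmb8 call was lost without BPA 25000 library 2 or 3 or BPA 250 library 3 or 4 (adjusted p up to 0.143), and the B2m call was lost without BPA 25000 library 3 or BPA 250 library 1 (adjusted p up to 0.0716).

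In stroma BPA 25000 library 3 departed from its group. The 25 tested stromal and matrix genes summed to 14168 CPM in that library, where the other 3 of the dose had 33508 to 39319 CPM, against 37808 to 43146 CPM in BPA 250. Of the 25 genes 2 were called (8%, beside 22.2% over all genes). Both called genes were lower and encode proteoglycans, decorin (Dcn), with 5756, 6455, 704 and 5559 CPM in BPA 25000, against 11573, 10184, 11408 and 12158 CPM in BPA 250 (log2FC -1.29 ± 0.39, adjusted p = 0.0197), and lumican (Lum), with 109.6, 104, 33.2 and 97 CPM in BPA 25000, against 291, 105, 304 and 291 CPM in BPA 250 (log2FC -1.53 ± 0.45, adjusted p = 0.0167). The Dcn call held in all 8 fits without 1 library, while the Lum call was lost without BPA 25000 library 3 (adjusted p up to 0.0693). Without both libraries that stand apart Dcn was at -0.95 (adjusted p = 0.0594) and Lum at -1.2 (adjusted p = 0.13). Collagen Col1a1 was at 1133 to 4749.7 CPM in BPA 25000, against 2844 to 3883 CPM in BPA 250 (log2FC -0.22 ± 0.54, adjusted p = 0.809). Of 22 matrix-degrading enzymes and inhibitors 0 were called by edgeR, 0 were under an unadjusted p of 0.05 and 0 were called by DESeq2, while limma voom called 3 higher, Plau, Ctsk and Timp2.

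Smooth muscle had 1 of 20 genes higher and 2 lower (15%, beside 22.2% over all genes), and 0 and 4 by limma voom. Tropomyosin Tpm1 had 1225, 1003, 1550.3 and 1094 CPM in BPA 25000, against 1457, 2311, 2353 and 2413 CPM in BPA 250 (log2FC -0.81 ± 0.23, adjusted p = 0.0114), and caldesmon (Cald1) had 581, 479, 506 and 507 CPM in BPA 25000, against 566, 895, 890.0 and 1213 CPM in BPA 250 (log2FC -0.78 ± 0.21, adjusted p = 0.00866). Without the libraries that stand apart Tpm1 was at -1.12 (adjusted p = 0.00912) and Cald1 at -0.96 (adjusted p = 0.0131). The Cald1 call was lost without BPA 250 library 4 (adjusted p up to 0.053). BPA 250 library 1 had the lowest Tpm1 and Cald1 values of its dose. Smoothelin (Smtn), a marker of contractile muscle, was higher, with 301, 376, 714 and 330.0 CPM in BPA 25000, against 228, 235, 332 and 261 CPM in BPA 250 (log2FC 0.71 ± 0.26, adjusted p = 0.0476), and its call was lost without BPA 25000 library 2 or 3 or BPA 250 library 1, 2 or 4 (adjusted p up to 0.404). Acta2 did not overlap between the doses, with 5628, 5816, 4973 and 5763 CPM in BPA 25000, against 10708, 7367, 8643 and 10185 CPM in BPA 250, and did not pass the threshold (log2FC -0.73 ± 0.31, adjusted p = 0.092).

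Epithelial markers showed few calls, with shares of 5% for simple epithelium and 7.69% for glands, beside 22.2% over all genes. Of 20 genes of simple epithelium 1 was higher, the tight junction protein Cldn4, with 21.4, 15.3, 52.5 and 27 CPM in BPA 25000, against 4.84, 17.1, 14.8 and 7.97 CPM in BPA 250 (log2FC 1.38 ± 0.45, adjusted p = 0.027), and its call was lost without BPA 25000 library 3 or BPA 250 library 1 or 4 (adjusted p up to 0.184). Keratin Krt8 was at 141 to 428 CPM in BPA 25000, against 123 to 589 CPM in BPA 250 (log2FC -0.13 ± 0.46, adjusted p = 0.873). Of 13 gland genes 1 was higher, Aldh1a1, already described. Wfdc2 is a secreted protein of glands. It had 26.7, 30.9, 99.5 and 40.2 CPM in BPA 25000, against 21.4, 36.7, 16.8 and 18.4 CPM in BPA 250 (log2FC 1.08 ± 0.42, adjusted p = 0.0626). Of 14 genes of squamous epithelium 0 were called by edgeR, DESeq2 or limma voom, and 1 had an unadjusted p under 0.05. Their median log2 fold change was 0.60, and 0.016 with a gene that had 0 counts in BPA 250 set at its bound. Krt5 and Krt14 were under 2 CPM in all 8 libraries. Of 14 ciliated cell genes 0 were called by edgeR, with a median of 0.76; DESeq2 called 1 lower, limma voom 0, and 2 had an unadjusted p under 0.05. Foxj1, the master factor of motile cilia, was at 0.996 to 4.45 CPM in BPA 25000, against 0 to 2.32 CPM in BPA 250 (log2FC 1.01 ± 1.19, adjusted p = 0.582). Tekt1, a protein of the ciliary axoneme, was at 4.06 to 4.38 CPM in BPA 25000, against 0 to 2.85 CPM in BPA 250 (log2FC 2.26 ± 0.95, adjusted p = 0.0882), and Ccdc39, which sets the assembly of dynein arms, at 24 to 35.1 CPM in BPA 25000, against 48.4 to 78.4 CPM in BPA 250 (log2FC -1.1 ± 0.44, adjusted p = 0.0737). Ccno had 7 counts in BPA 25000, against 0 in BPA 250.

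Among genes that mark blood and neighbouring tissue, 3 of 7 red blood cell genes were lower (42.9%, beside 11.2% of all genes), all beta globins. Hbb had 145, 107, 27.2 and 106 CPM in BPA 25000, against 255, 172, 263 and 196 CPM in BPA 250 (log2FC -1.2 ± 0.42, adjusted p = 0.0369). Beta globin copies are near-identical, so their counts may be split between them, and Hbb-b1 (log2FC -1.3 ± 0.40, adjusted p = 0.0192) and Hbb-bs (log2FC -1.18 ± 0.43, adjusted p = 0.0493) are not independent of Hbb. The list's summed level was 127 to 394 CPM in BPA 25000, against 416 to 643 CPM in BPA 250, and without the libraries that stand apart 0 members were called. The Hbb call was lost without BPA 25000 library 2 or 3 or BPA 250 library 1, 3 or 4 (adjusted p up to 0.118). The part of blood left in the tissue was not tested. Of 7 ovary and oviduct genes 0 were called by edgeR and by DESeq2, 1 by limma voom, and 1 had an unadjusted p under 0.05. Of 7 skeletal muscle genes these counts were all 0. Of 6 mesothelium genes 1 was called (16.7%, beside 22.2% over all genes). It was mesothelin (Msln), higher with 17.2, 17.6, 39.5 and 18.4 CPM in BPA 25000, against 8.96, 12.1, 7.31 and 9.12 CPM in BPA 250 (log2FC 1.3 ± 0.45, adjusted p = 0.0387). The Msln call was lost without BPA 25000 library 3 or BPA 250 library 1, 3 or 4 (adjusted p up to 0.213). Of the 6, 2 were above 0, the median log2 fold change was -0.29, and limma voom called 0 higher and 2 lower. Of 17 fat cell genes 2 were higher and 0 lower (11.8%, beside 22.2% over all genes), both lipases that release stored fat. The list as a whole had 7 of 17 members above 0 and a median log2 fold change of -0.054, which was -0.43 without the libraries that stand apart. Pnpla2 had 124, 172, 187 and 157 CPM in BPA 25000, against 109, 102, 91.1 and 106 CPM in BPA 250 (log2FC 0.65 ± 0.14, adjusted p = 0.00226), and Lipe had 23.5, 28.2, 52.9 and 23.5 CPM in BPA 25000, against 15.2, 14.3, 15.4 and 14.5 CPM in BPA 250 (log2FC 1.11 ± 0.23, adjusted p = 0.00168). Neither overlapped, and without the libraries that stand apart they were at 0.58 (adjusted p = 0.0308) and 0.74 (adjusted p = 0.0405). Of 14 nerve genes 1 was lower (7.14%, beside 22.2% called over all genes). It was the myelin gene Pmp22, with 261, 262, 150.3 and 247 CPM in BPA 25000, against 353, 353, 389 and 384 CPM in BPA 250 (log2FC -0.69 ± 0.20, adjusted p = 0.0148). The Pmp22 call was lost without BPA 25000 library 3 (adjusted p up to 0.0714).

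Wnt and Hedgehog signalling had 4 of 35 members higher and 2 lower (17.1%, below the 22.2% over all genes), and without the libraries that stand apart 3 and 1. Lef1 is the DNA-binding partner of beta-catenin. It had 1.91, 0.902, 2.08 and 1.33 CPM in BPA 25000, against 0, 0.272, 0 and 0.173 CPM in BPA 250 (log2FC 3.59 ± 0.69, adjusted p = 8.4e-04). Nkd2 is an inhibitor of the pathway that acts on Dishevelled. It had 39, 17.6, 48.7 and 22.8 CPM in BPA 25000, against 4.84, 8.48, 14 and 6.99 CPM in BPA 250 (log2FC 1.91 ± 0.40, adjusted p = 0.00164), and the co-receptor Lrp5 had 80, 113, 134 and 107 CPM in BPA 25000, against 66, 61.7, 47.8 and 48 CPM in BPA 250 (log2FC 0.96 ± 0.24, adjusted p = 0.00634). These 3 did not overlap, which their choice as called genes makes likely in advance. They were called in all 8 fits without 1 library, and without the libraries that stand apart, at 2.99 (adjusted p = 0.0115), 1.41 (adjusted p = 0.041) and 0.90 (adjusted p = 0.047). Wnt7a is a ligand of uterine luminal epithelium. It had 20.8, 3.04, 61.8 and 10 CPM in BPA 25000, against 1.17, 7.21, 6.06 and 3.81 CPM in BPA 250 (log2FC 2.39 ± 0.86, adjusted p = 0.0461), with BPA 25000 library 2 below 3 of the BPA 250 libraries. Its call was lost without BPA 25000 library 1 or 3 or BPA 250 library 1, 2, 3 or 4 (adjusted p up to 0.335). The receptors Fzd4, with 54.1, 61.1, 55.7 and 61.8 CPM in BPA 25000, against 138, 68.6, 90.8 and 99.9 CPM in BPA 250 (log2FC -0.77 ± 0.21, adjusted p = 0.0105), and Fzd6, with 59, 77.9, 103 and 88.2 CPM in BPA 25000, against 137, 130.4, 86.5 and 114 CPM in BPA 250 (log2FC -0.51 ± 0.16, adjusted p = 0.0238), were lower. The Fzd4 call was lost without BPA 250 library 1 (adjusted p up to 0.0559), and the Fzd6 call was lost without BPA 25000 library 1 or 2 or BPA 250 library 1 or 2 (adjusted p up to 0.0913). Against control, on the log2 scale, Lef1 was at 1.35 ± 0.61 (SE, adjusted p = 0.219) for BPA 25000 and -2.25 ± 0.70 (SE, adjusted p = 0.0431) for BPA 250. Nkd2 was, against control, at 1.95 ± 0.40 (SE, adjusted p = 0.0155) for BPA 25000 and 0.039 ± 0.40 (SE, adjusted p = 0.958) for BPA 250. Of 35 growth factors, receptors and binding proteins 0 were called by edgeR, beside 22.2% of all genes, while 6 had an unadjusted p under 0.05. DESeq2 called 1 higher and 1 lower, and limma voom 3 higher and 4 lower.

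Genes often mutated in human endometrial cancer had the highest share of calls of the 36 lists, 9 of 20 (45%, beside 22.2% over all genes), 5 higher and 4 lower. Without the libraries that stand apart 0 of the 20 were called by edgeR. Calls over all genes fell as well, to 465 higher and 681 lower of 13391 tested. Of PI3 kinase, the catalytic subunit Pik3ca was lower, with 197, 199.7, 128 and 193 CPM in BPA 25000, against 272, 225, 258 and 270.3 CPM in BPA 250 (log2FC -0.51 ± 0.14, adjusted p = 0.012), and the regulatory subunit Pik3r1 higher, with 76.1 to 103 CPM in BPA 25000, against 53.3 to 66.2 CPM in BPA 250 (log2FC 0.49 ± 0.15, adjusted p = 0.0241). Ppp2r1a is the scaffold of phosphatase 2A. It had 236, 226, 211 and 217 CPM in BPA 25000, against 157, 182, 169 and 169.6 CPM in BPA 250 (log2FC 0.39 ± 0.11, adjusted p = 0.0121). The ribosomal protein gene Rpl22 was higher (log2FC 0.96 ± 0.25, adjusted p = 0.00762), and the chromatin loop factor Ctcf was lower (log2FC -0.51 ± 0.13, adjusted p = 0.0075). The Ctcf call held in all 8 fits without 1 library but was lost without both libraries that stand apart, at -0.42 (adjusted p = 0.0817). The Pik3ca call was lost without BPA 25000 library 3 (adjusted p up to 0.0557), the Ppp2r1a call was lost without BPA 250 library 1 (adjusted p up to 0.0578) and the Rpl22 call was lost without BPA 25000 library 3 (adjusted p up to 0.0535).

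Among chromatin enzymes, 2 of 17 were higher and 1 lower (17.6%, beside 22.2% over all genes), and 5 and 2 by limma voom. Kdm6b is a demethylase of histone H3. It had 61.2, 62.9, 57.2 and 52.9 CPM in BPA 25000, against 33.9, 37.8, 43 and 36.8 CPM in BPA 250 (log2FC 0.63 ± 0.14, adjusted p = 0.00216). The deacetylases split, with Hdac3 higher at 75.4, 85.7, 126 and 78.1 CPM in BPA 25000, against 57.6, 60.6, 73.9 and 53.7 CPM in BPA 250 (log2FC 0.57 ± 0.16, adjusted p = 0.0105) and Hdac2 lower at 143, 113, 122 and 107 CPM in BPA 25000, against 173, 196, 171 and 176 CPM in BPA 250 (log2FC -0.56 ± 0.12, adjusted p = 0.00223). Kdm6b and Hdac2 were called without the libraries that stand apart, at 0.56 (adjusted p = 0.0262) and -0.61 (adjusted p = 0.0141). The Hdac3 call was lost without BPA 25000 library 3 (adjusted p up to 0.107). Of 24 immediate early genes edgeR called 1 higher and 1 lower (8.33%, beside 22.2% over all genes), where limma voom called 4 higher and 2 lower. By edgeR Fosl2 was higher (log2FC 0.99 ± 0.26, adjusted p = 0.00872) and Klf6 lower (log2FC -0.70 ± 0.24, adjusted p = 0.0338). Without the libraries that stand apart 0 were called, with Fosl2 at 0.94 (adjusted p = 0.0605). The Klf6 call was lost without BPA 25000 library 1, 3 or 4 or BPA 250 library 2 or 4 (adjusted p up to 0.125).

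Of 33 respiratory chain genes 3 were higher and 4 lower by edgeR (21.2%, beside 22.2% over all genes). By limma voom 3 were higher and 9 lower, where that tool called 1903 and 1985 of all 13312 genes. Without the libraries that stand apart edgeR called 1 higher and 1 lower. Cox7c is a small subunit of cytochrome oxidase. It had 299, 134, 142 and 112 CPM in BPA 25000, against 395, 356, 418 and 343 CPM in BPA 250 (log2FC -1.14 ± 0.29, adjusted p = 0.00691), and without the libraries that stand apart it was at -1.07 (adjusted p = 0.0528). Subunits of complex II went opposite ways, with Sdhd lower at 186, 161, 139.7 and 178 CPM in BPA 25000, against 269, 229, 250.2 and 249.6 CPM in BPA 250 (log2FC -0.58 ± 0.14, adjusted p = 0.00397) and Sdhb higher at 75.2, 68.5, 68.8 and 62.6 CPM in BPA 25000, against 49.7, 54.3, 60.7 and 54.4 CPM in BPA 250 (log2FC 0.33 ± 0.11, adjusted p = 0.0273). The Sdhb call was lost without BPA 25000 library 1 or 3 or BPA 250 library 1, 2 or 4 (adjusted p up to 0.113). Sdhd was called without the libraries that stand apart, at -0.50 (adjusted p = 0.0438). Of 38 ribosomal protein genes 3 were higher and 0 lower (7.89%, beside 22.2% over all genes), with 19 members above 0. DESeq2 called 3 higher and 4 lower, limma voom 4 and 4, and an unadjusted p under 0.05 gave 5 and 5. By edgeR 0 were called without the libraries that stand apart. Rps19 had 396, 444, 752 and 376 CPM in BPA 25000, against 223, 275, 314 and 184 CPM in BPA 250 (log2FC 0.98 ± 0.35, adjusted p = 0.0417), and its call was lost without BPA 25000 library 2 or 3 or BPA 250 library 1, 2 or 4 (adjusted p up to 0.211). Of 22 xenobiotic metabolism genes 0 were called by edgeR and by DESeq2, 3 by limma voom, and 5 had an unadjusted p under 0.05. Of 14 genes in the list of RNA quality and stress 1 was higher (7.14%, beside 22.2% called over all genes), Ddit3 (log2FC 1.11 ± 0.32, adjusted p = 0.0138). The Ddit3 call was lost without BPA 25000 library 3 or BPA 250 library 1 or 4 (adjusted p up to 0.118). The summed level of that list was lower in BPA 25000, as given below.

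**Figure D4:**
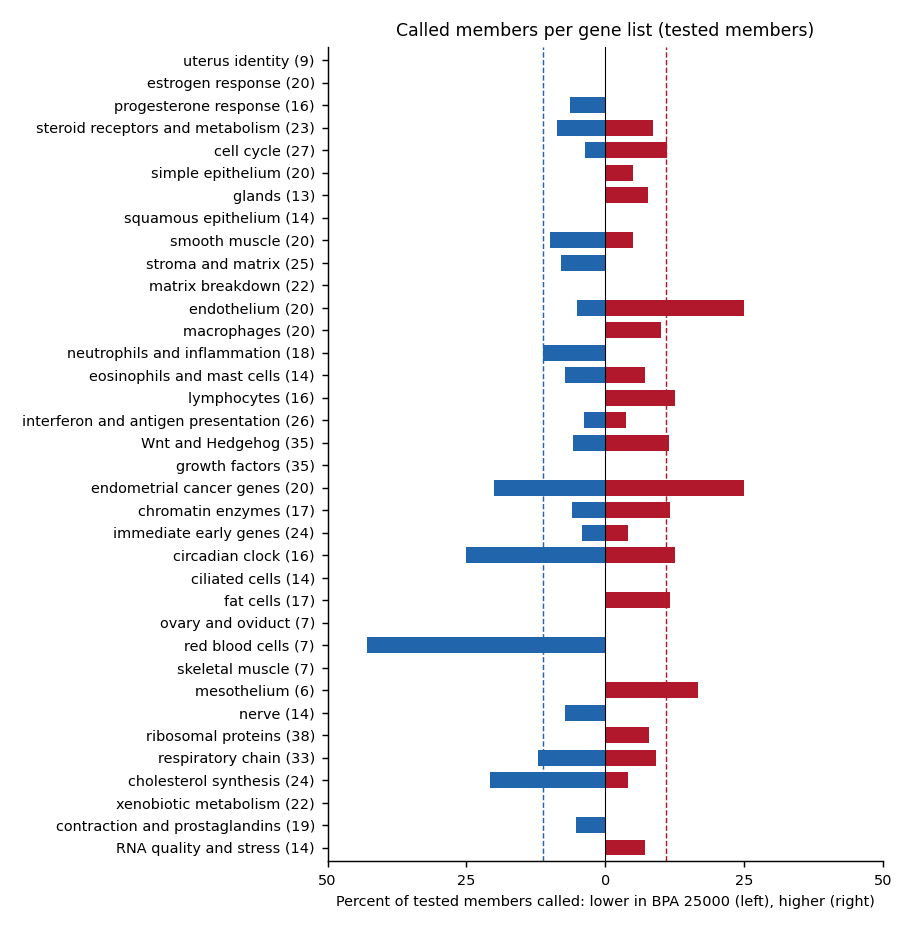
Percent of each list's tested members called lower (blue, left) and higher (red, right) in BPA 25000, with the number tested in parentheses and dashed lines at 11.2% and 11%, the shares over all genes tested. Endometrial cancer genes, the clock, cholesterol synthesis and red blood cells are among those past the line for lower genes. Endothelium, endometrial cancer genes, mesothelium and the clock are among those past the line for higher genes. Estrogen response is among the lists with no bar.

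The 36 lists held 653 tested genes, of which 43 were higher (6.58%) and 38 lower (5.82%), below the shares over all genes. The summed level of 7 of the 36 lists did not overlap between the doses, where 21.9% of all single genes tested did not overlap. The 7 are described here and not set apart by this. For cell cycle the sums were 520 to 880 CPM in BPA 25000, against 394 to 509 CPM in BPA 250. The other 6 were lower in BPA 25000. They were red blood cells, nerve, contraction and prostaglandins, cholesterol synthesis, ciliated cells and the list of RNA quality and stress. The last summed to 2723 to 3369 CPM in BPA 25000, against 3528 to 4063 CPM in BPA 250, and its part in the other results was not tested. Ciliated cell genes summed to 124 to 143 CPM in BPA 25000, against 149.7 to 204 CPM in BPA 250, while the median log2 fold change of the 14 members was above 0, at 0.76.

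Set against the vehicle control, BPA 25000 had 309 genes called (2.32%) and BPA 250 had 1170 (8.79%), in the same fit and with the same control libraries. On the log2 scale Btg1b was, against control, at 1.0 ± 0.49 (SE, adjusted p = 0.259) for BPA 25000 and -1.64 ± 0.51 (SE, adjusted p = 0.0441) for BPA 250. Svbp was, against control, at -1.06 ± 0.33 (SE, adjusted p = 0.0795) for BPA 25000 and 1.57 ± 0.33 (SE, adjusted p = 0.00955) for BPA 250. Ubqln2 was, against control, at -0.51 ± 0.20 (SE, adjusted p = 0.15) for BPA 25000 and 1.29 ± 0.20 (SE, adjusted p = 0.00178) for BPA 250, and Yaf2 at -1.31 ± 0.23 (SE, adjusted p = 0.00849) for BPA 25000 and 0.53 ± 0.22 (SE, adjusted p = 0.117) for BPA 250. Aldh1a1 was, against control, at 3.06 ± 0.58 (SE, adjusted p = 0.0125) for BPA 25000 and 1.07 ± 0.55 (SE, adjusted p = 0.194) for BPA 250, above it at both doses.

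To place the other doses, a score was taken in each library as the mean log2 CPM of the 1467 higher genes minus that of the 1486 lower genes. The contrast chose these genes, so the gap between BPA 25000 and BPA 250 is given by the choice. The mean score ± SD (n = 4 a group) was -1.57 ± 0.096 for control. With rising BPA dose it was -1.09 ± 0.54 at 2.5, -2.27 ± 0.20 at 25, -2.59 ± 0.27 at 250, -1.19 ± 0.32 at 2500 and -0.87 ± 0.43 at 25000 µg per kg per day. For EE2 it was -1.56 ± 0.27 at 0.05 and -1.13 ± 0.26 at 0.5 µg per kg per day. The 4 BPA 25 libraries lay between -2.53 and -2.10, and the 4 BPA 250 libraries between -2.95 and -2.34. The 4 BPA 2500 libraries lay between -1.55 and -0.91, and the 4 BPA 25000 libraries between -1.21 and -0.25. The places of BPA 250 and BPA 25000 follow from the choice of genes. Among the BPA doses outside the contrast the means were in no order of dose. That at 25 µg per kg per day lay below those at 2.5 and at 2500. The BPA 2.5 mean holds libraries 1 and 3, of low correlation with the others, at scores of -1.16 and -0.75. Libraries 2 and 4 of that dose were at -1.83 and -0.62, and the mean was not taken without libraries 1 and 3. With the genes called without the libraries that stand apart the control mean was -1.52. Those of BPA were then -0.92 at 2.5, -2.15 at 25, -2.42 at 250, -0.94 at 2500 and -0.59 at 25000 µg per kg per day.

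**Figure D5:**
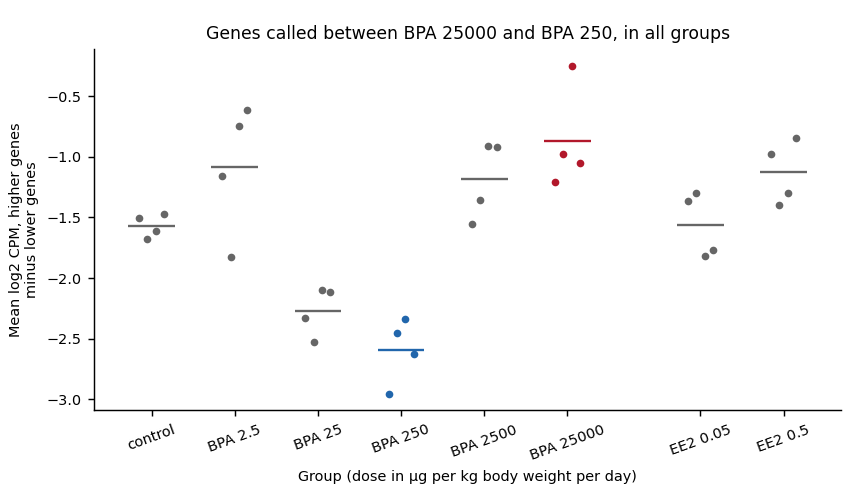
Score of each library (mean log2 CPM of the genes called higher minus that of the genes called lower between BPA 25000 and BPA 250), by group, with control and BPA doses from low to high and the EE2 doses at the right; lines are group means. BPA 25 and BPA 250 lie lowest, at means of -2.27 and -2.59, and BPA 25000 highest, at -0.87, with library 3 at -0.25. The places of BPA 250 and BPA 25000 follow from the choice of genes.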

How the data were processed

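Uterine RNA of 32 rats, 4 in each of 8 groups, was sequenced. The authors deposited 1 table of raw read counts per gene. Per the submitters' processing notes, bcl2fastq, TopHat and edgeR were used with the rat build rn5; the versions, the annotation and the strand setting were not given in the sources used here. Counts depend on which reads the authors' counting assigned to near-identical or overlapping genes. On the build GRCr8 other genes overlap several of those named, such as Thra for Nr1d1 and Ttc14 for Ccdc39.

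Gene identifiers were named through RefSeq (GRCr8): 17167 of 17327 matched, and the other 160 held 1.82% of counts. From these counts edgeR 4.0.16 in R 4.3.3 (limma 3.58.1) fitted 1 mean a group over all 8 groups, with TMM scaling and genes kept by filterByExpr (minimum count 10, minimum total 15). BPA 25000 minus BPA 250 was tested by quasi-likelihood F tests at a Benjamini-Hochberg adjusted p under 0.05, and the code was tested on simulated data. An SE is the size of the fold change over the root of F. Totals of 11777809 to 24661856 counts a library set the precision. Named genes were the 15 with the largest fold changes in each direction at a mean log2 CPM of at least 1 and with all BPA 25000 libraries on 1 side of the BPA 250 mean, with a hormone and cell marker panel and called members of 36 gene lists; the few others named were chosen after their values were seen. Some list members are not reported here. Groups, lists and tests were chosen with earlier results of these data known. Alternatives used DESeq2 1.42.0, its size factors, limma voom, other filters, another threshold, the 2 groups alone and fewer libraries.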

Additional observations from a re-analysis of the deposited data

Results flagged for a closer look

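Each of 248 groups of 4 libraries was tested for 1 value far from the other 3, and 20 such values were found (8.06%). Chance gives about 1 in 20 for independent values of a normal spread, and these genes share their libraries. Of the 20 values, 12 belonged to BPA 25000 library 3 and 4 to BPA 250 library 1.

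BPA 25000 library 3 was the highest of its dose for Zfp219 at 84.8 CPM, Jakmip1 at 10.5 CPM, Egfl7 at 88.9 CPM and Msln at 39.5 CPM. It was the lowest for LOC681325 at 0 CPM, Nr3c1 at 76 CPM, Lum at 33.2 CPM, Dcn at 704 CPM, B2m at 1279 CPM, Pik3ca at 128 CPM and Pmp22 at 150.3 CPM. The gap was widest for Dcn, which the other 3 libraries of the dose held at 5559 to 6455 CPM. The same library had a median correlation of 0.926 with the other libraries, where the other 3 had 0.954 to 0.956.

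BPA 250 library 1 was the lowest of its dose for Hspa1l at 0 CPM, Kif22 at 0 CPM and Tpm1 at 1457 CPM, and the highest for Svbp at 147 CPM, where the other 3 had 45.8 to 50.6 CPM. In BPA 250 library 2, Lum was at 105 CPM, where the other 3 had 291 to 304 CPM. Mzb1 was at 0.0454 CPM in that library, from 1 count, and at 0 in the others. Esr2 was at 0.866 CPM in BPA 250 library 4 and at 0 in the others. Where the other 3 libraries are at 0 any count is flagged, so the flags of Mzb1 and Esr2 were given in advance. Ctcf was at 146 CPM in BPA 25000 library 1, where the other 3 had 101 to 105 CPM.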

How the results depend on the processing

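With all libraries 1467 genes were higher and 1486 lower. Changing the scaling, the filter, the tool or the threshold left 1369 to 2041 higher and 1390 to 1985 lower. With the 8 libraries of these doses alone in the fit, 500 were higher and 820 lower, of which 487 and 799 were among the first calls. Leaving out 1 library gave 713 to 1452 higher and 968 to 1537 lower genes, with the lowest counts without BPA 25000 library 3. Without that library and BPA 250 library 1 there were 465 and 681. In every fit without 1 library the same 540 genes were higher and 784 lower, and in all 16 alternatives 288 and 516. Among 121 named genes, 1561 of the single values kept direction and side of the threshold, 336 lost the call, 19 gained it and 8 values of genes with no call changed sign. Of the called genes named, Ptgs2 alone turned direction, with a log2 fold change of 0.0746 by limma voom with library weights; the cause was not tested. No paired analysis was possible because the labels give no replicate numbers that the groups share. At 11802916 to 24661856 counts a library, genes such as Mzb1 and Tpsab1 rest on under 30 counts a group.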

Other observations

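Gene families taken by the stem of their symbols, 133 of them with at least 12 tested members, were counted after the values were seen and carry no test. The Ube stem, which holds enzymes that pass ubiquitin to proteins, had 0 of 35 members higher and 11 lower, beside 11% and 11.2% over all genes. Without BPA 25000 library 3 and BPA 250 library 1 it had 0 and 6, where 465 and 681 of all 13391 genes were called. Ube2d3 averaged 133 ± 37.9 CPM in BPA 25000 and 348 ± 81.3 CPM in BPA 250 (SD, n = 4 each) (log2FC -1.39 ± 0.27, adjusted p = 8.6e-04). Ube2g1 averaged 114 ± 18.6 CPM in BPA 25000 and 226 ± 29.9 CPM in BPA 250 (SD, n = 4 each) (log2FC -0.99 ± 0.18, adjusted p = 6.8e-04), and Ube3a, the ligase of the Angelman locus in human, 104 ± 26.5 CPM in BPA 25000 and 201 ± 15.2 CPM in BPA 250 (SD, n = 4 each) (log2FC -0.95 ± 0.22, adjusted p = 0.00329). The Usp stem of ubiquitin proteases had 7 of 43 higher and 14 lower, and 2 and 4 without the 2 libraries. The Alg stem, enzymes that build the sugar precursor for N-glycosylation, had 0 of 12 higher and 4 lower, and 0 and 1 without the 2 libraries. Of the 4, Alg11 averaged 38.4 ± 11.5 CPM in BPA 25000 and 92.1 ± 33.8 CPM in BPA 250 (SD, n = 4 each) (log2FC -1.26 ± 0.28, adjusted p = 0.00226). The Lsm stem of RNA-binding ring proteins had 0 of 12 higher and 4 lower, and 0 and 2 without the 2 libraries.

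In the other direction, the RT1 stem, the MHC genes of the rat, had 17 of 40 members higher and 0 lower, and 10 and 0 without the 2 libraries. RT1-CE7 averaged 301 ± 69.4 CPM in BPA 25000 and 126 ± 30.7 CPM in BPA 250 (SD, n = 4 each) (log2FC 1.25 ± 0.24, adjusted p = 8.6e-04). RT1 genes are near-identical, so reads may be split between them or counted under more than 1 name. RT1-CE11 had nearly the same values as RT1-CE7, at 300 ± 69.6 CPM in BPA 25000 and 126 ± 30.6 CPM in BPA 250 (SD, n = 4 each). The 17 higher members are therefore not independent of each other, and their values are uncertain. The light chain of class I molecules, B2m, was lower over the same libraries, at a log2 fold change of -0.84. The Map stem, which mixes kinases of the MAP cascade with microtubule proteins, had 12 of 41 higher and 1 lower, and 5 and 1 without the 2 libraries.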
